A study of Mus musculus with 4 samples.

Results

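Oligodendrocyte lineage and myelin genes were examined in the ischemic hippocampus of mice with and without neuronal aromatase, as 37 genes among the 22609 gene symbols counted. The genes were taken as a list of symbols and not by their measured values, although the list was drawn up with earlier results of these libraries known. It holds 3 precursor genes, 2 genes of newly formed oligodendrocytes, 6 transcription factors, 18 mature myelin genes and 8 other genes of the lineage. St18, one of the transcription factors, was also selected by the study from these same libraries for qRT-PCR. Its value here is therefore a description and no independent evidence. By qRT-PCR the study reported St18 as significantly higher in the mice without neuronal aromatase, and it listed the gene under apoptosis.

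Oligodendrocytes wrap axons in myelin, a compacted membrane rich in lipid and in a small set of abundant proteins. They arise from dividing precursor cells that carry the PDGF alpha receptor and the proteoglycan NG2, pass through a brief stage marked by the receptor GPR17, and then switch on the myelin genes under SOX10, the OLIG factors and MYRF. In the hippocampus, myelin lies mainly in the alveus, the fimbria and the layers crossed by long axons, and oligodendrocytes are among the cells that are sensitive to ischemia.

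RNA-Seq was performed on 4 libraries of hippocampal RNA. The FLOX+GCI group had 2 of them and the FBN-ARO-KO+GCI group the other 2, and these are written below as FLOX and FBN-ARO-KO. All mice were ovariectomized adult females that had undergone 20 min of global cerebral ischemia (GCI, clipping of both common carotid arteries), with reperfusion for 24 h. In FBN-ARO-KO mice the aromatase gene Cyp19a1 is deleted where the CaMKIIα promoter drives Cre, that is, in excitatory neurons of the forebrain and not in oligodendrocytes, and age-matched FLOX mice carry the floxed gene. No library of sham-operated mice was analysed here, so the comparison is between genotypes after GCI. Whether the libraries of a group came from separate mice is not stated, and the spread between them may be technical.

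Counts on genes ranged from 24333396 to 33076795 per library, and a level of 3 counts, taken as the floor, lay between 0.0907 and 0.123 CPM (counts relative to library size after TMM scaling), which covers counting error only. Cyp19a1 had between 1 and 4 counts per library, too few to check the knockout. All 37 genes passed the filter on low counts, and 33 of them had over 100 counts in every library. Genotypes were compared with edgeR's quasi-likelihood test over 14527 genes with Benjamini-Hochberg adjustment. A log2 fold change is FBN-ARO-KO over FLOX throughout and is followed by its approximate standard error (SE).

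The genes of the lineage were present at very different levels. Per kilobase of the longest coding transcript, mean levels ran from 0.249 CPM per kb for Klk6 to 496 CPM per kb for Mbp, the gene for myelin basic protein, which compacts the cytoplasmic faces of myelin. Cnp, at 121 CPM per kb, and Mal, at 98.4, came next among the mature myelin genes. Summed over the 37 genes, the level per kb was 1650 in FLOX replicate 1 and 1784 in replicate 2, against 1827 in FBN-ARO-KO replicate 1 and 1814 in replicate 2. FLOX replicate 1 was thus the lowest of the 4 libraries, and it held the lowest value for 15 of the 37 genes. Mbp alone made up between 26.5% and 29.7% of that sum. The precursor genes summed to between 25.6 and 31.2 CPM per kb, and the mature myelin genes to between 978 and 1123. The ratio of these sums was 38.2 and 40.0 in FLOX and 35.7 and 38.5 in FBN-ARO-KO, so the groups overlapped. In whole tissue, fewer cells of a type and less RNA per cell cannot be told apart.

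**Figure D1:**
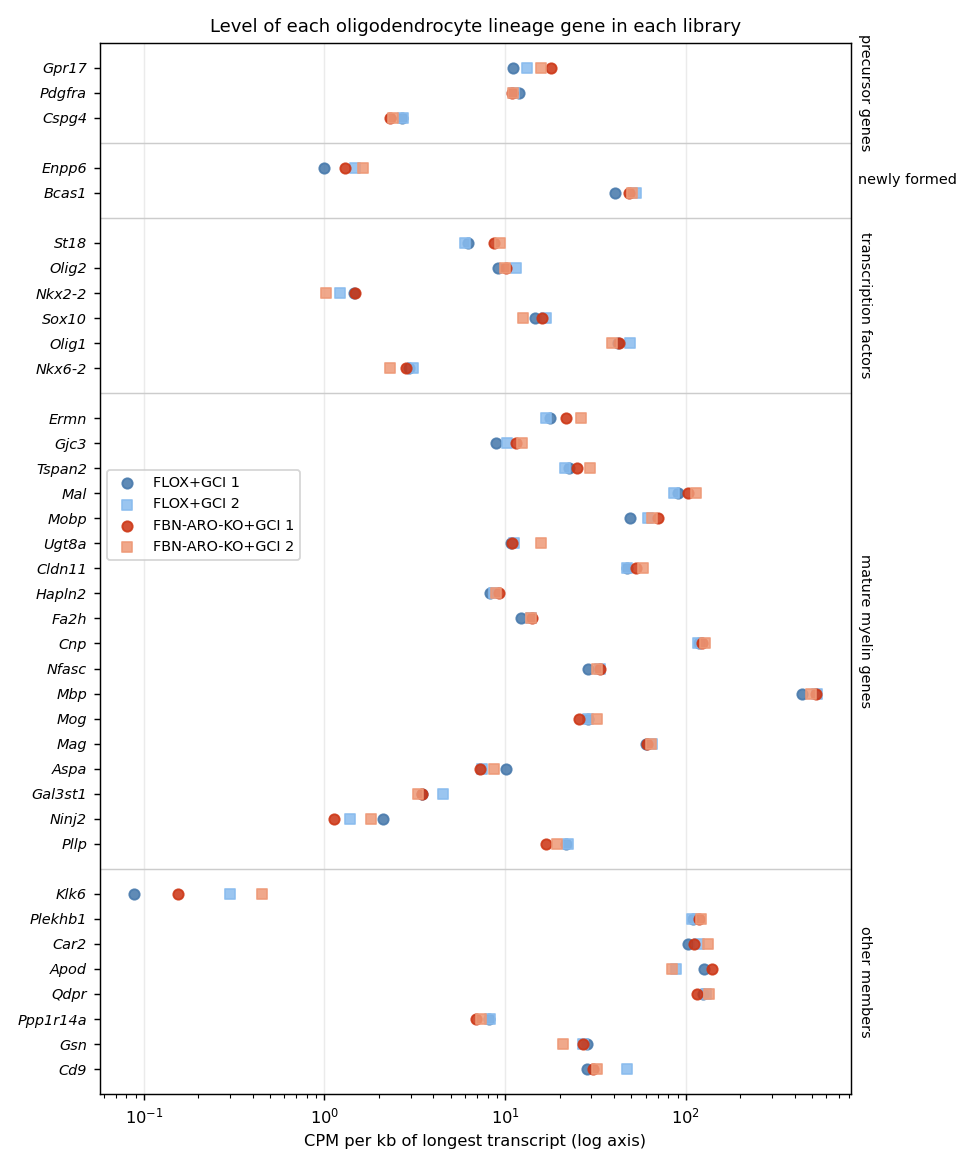
Level of each of the 37 genes in each library, as CPM per kb of the longest coding transcript on a log axis, with genes grouped by role. Circles are replicate 1 and squares replicate 2, blue for FLOX and red for FBN-ARO-KO; Mbp lies far to the right at 496 CPM per kb, and red lies to the right of blue for Gpr17, St18 and Ermn.

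None of the 37 genes passed an adjusted p of 0.05 with edgeR's quasi-likelihood test, where 0.0138% of all tested genes did. At an unadjusted p under 0.05 there were 9 genes, 8 of them higher and 1 lower in FBN-ARO-KO. The 8 are 21.6% of the list, against 8.72% of all tested genes that were higher at this threshold, and the 1 is 2.70%, against 7.82% that were lower. The groups did not overlap for 12 genes with FBN-ARO-KO above, or 32.4% against 25.9% of all genes, and for 6 genes with FBN-ARO-KO below, or 16.2% against 25.8%. A positive log2 fold change was found for 21 of the 37 genes, or 56.8% against 48.7% of all genes. The median log2 fold change of the list was 0.07, beside -0.01 for all tested genes. DESeq2 gave an adjusted p to 26 of the 37 genes and called 4 of them higher, St18, Gpr17, Ermn and Mal, and none lower, where it called higher 3.35% of all genes that had an adjusted p. The likelihood ratio test of edgeR called St18, Gpr17 and Ermn, where it called 0.957% of all genes higher.

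Across the whole data set, the log2 ratio of the genotypes depended on the GC content of the transcript. Over genes, which are not independent replicates, Spearman's correlation between GC content and the log2 ratio was -0.55 for 13869 genes, and within the FBN-ARO-KO pair it was -0.48 for replicate 2 against replicate 1. Among the 37 genes, it was -0.51, a description over genes that share the same 4 libraries. The 7 genes with a GC content under 45% had a median log2 fold change of 0.30, and the 13 genes at 55% or more had a median of -0.13. When the dependence on GC content and transcript length was subtracted in every library, these medians were 0.16 and 0.13. Values with this correction are therefore given beside the results they move. With it, 10 of the 37 genes were higher at an unadjusted p under 0.05 (27.0%, against 7.9% of all genes) and 0 were lower (against 3.51%), and 30 had a positive log2 fold change (81.1%, against 57.2%). No gene of the list passed an adjusted p of 0.05 with the correction, where 0.0138% of all genes did. Of the 9 genes named by the unadjusted p, 6 kept an unadjusted p under 0.05 with it.

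**Figure D2:**
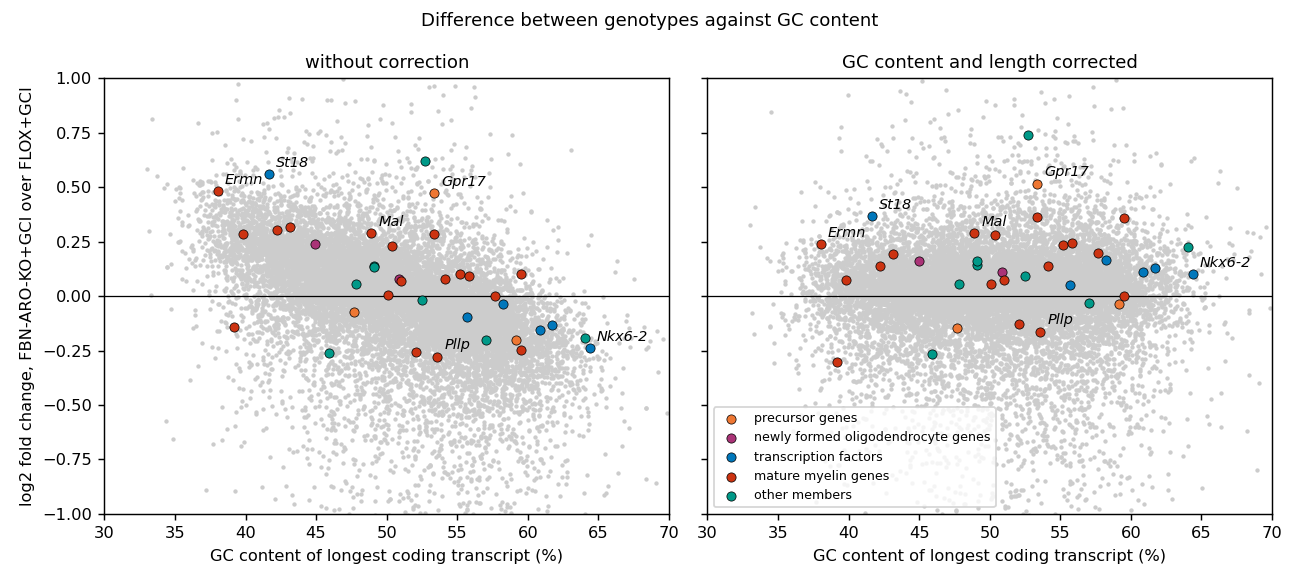
Log2 fold change between genotypes against the GC content of the longest coding transcript, without (left) and with (right) the correction. Gray points are all tested genes within the axis limits and colored points the 37 genes by role; on the left Ermn and St18 lie at the AT-rich end above 0 and Nkx6-2 at the GC-rich end below 0, and on the right Gpr17 and St18 remain at 0.52 and 0.37.

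Among the precursor genes, Gpr17 was higher in FBN-ARO-KO, and Pdgfra and Cspg4 were not. Gpr17 encodes a G protein-coupled receptor of committed precursors that is lost as they mature. It measured 57.5 and 68.6 CPM in FLOX and 93.5 and 81.8 CPM in FBN-ARO-KO. Both FBN-ARO-KO libraries lay above both FLOX libraries, although the FLOX libraries also differed from each other. Its log2 fold change was 0.47 (SE 0.11, adjusted p = 0.238 with edgeR's quasi-likelihood test), and 0.52 with the correction. DESeq2 gave an adjusted p of 0.0112. Leaving out each library gave values between 0.35 and 0.60, the highest without FLOX replicate 2, when the adjusted p was 0.0307 with edgeR's quasi-likelihood test. Gpr17 lies within Lims2 on the opposite strand, and Lims2 itself had between 283 and 440 counts and a log2 fold change of -0.05.

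Pdgfra, the receptor through which PDGF drives precursor division, measured 78.0 and 73.9 CPM in FLOX and 71.8 and 72.6 CPM in FBN-ARO-KO. Its log2 fold change was -0.07 (SE 0.08, adjusted p = 0.635 from edgeR), a difference smaller than that between the FLOX libraries. With the correction it was -0.15 (SE 0.06), with an unadjusted p of 0.0535 from edgeR. Cspg4, the gene for NG2, measured 21.6 and 21.9 CPM in FLOX and 18.5 and 19.3 CPM in FBN-ARO-KO, a log2 fold change of -0.20 (SE 0.10) that became -0.03 with the correction. The groups did not overlap for either gene, with FBN-ARO-KO below, as was the case for 25.8% of all tested genes. Counted against Pdgfra within each library, which needs no scaling, Gpr17 had 0.737 and 0.929 counts per count of Pdgfra in FLOX and 1.30 and 1.13 in FBN-ARO-KO. Against Cspg4 the ratios were 2.67 and 3.13 in FLOX and 5.05 and 4.25 in FBN-ARO-KO. Neither ratio overlapped between the groups, which follows from the values of the single genes above and is no further evidence. The median of the 3 genes was -0.07.

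Fibroblasts also express Pdgfra, and pericytes Cspg4. Of the 10 markers of mural cells and fibroblasts, 9 had a negative log2 fold change (median -0.44), 2 of them, Pdgfrb and Anpep, with an unadjusted edgeR p under 0.05 (named after their values were seen, as are the next 2). Their summed level ran from 256 to 358 CPM in FLOX and from 204 to 267 CPM in FBN-ARO-KO, with FLOX replicate 1 the highest. All 10 endothelial markers had a negative log2 fold change (median -0.34), of which Cdh5 and Tie1 had an unadjusted edgeR p under 0.05. Among all tested genes, 7.82% were lower at this threshold and 48.7% had a positive log2 fold change. The part of mural cells, fibroblasts and endothelial cells in the Pdgfra and Cspg4 values was not tested.

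The genes of newly formed oligodendrocytes did not separate the genotypes. Enpp6, a choline phosphodiesterase of newly differentiating cells, measured 3.03 and 4.54 CPM in FLOX and 3.98 and 4.98 CPM in FBN-ARO-KO. Bcas1, which marks early myelinating cells, measured 120.2 and 156 CPM in FLOX and 143 and 149 CPM in FBN-ARO-KO. In both genes FLOX replicate 1 was lowest and the groups overlapped, with log2 fold changes of 0.24 (SE 0.25) and 0.08 (SE 0.12), or 0.16 and 0.11 with the correction. Without FLOX replicate 1 these became -0.02 and -0.09.

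Among the transcription factors, St18 was higher in FBN-ARO-KO and the other 5 had small negative values that changed sign with the correction. St18, a zinc finger factor of the MYT1 family, lies on chromosome 1 of mm9 from 6477312 to 6851021. It measured 36.7 and 35.3 CPM in FLOX and 51.1 and 55.1 CPM in FBN-ARO-KO. The gap between the groups was wider than the spread within either. Its log2 fold change of 0.56 (SE 0.09, adjusted p = 0.238 with edgeR's quasi-likelihood test) became 0.37 (SE 0.07) with the correction, the transcript having a GC content of 41.7%. The adjusted p of St18 was 0.00212 with DESeq2 and 0.000307 with edgeR's likelihood ratio test, and 0.0371 with the quasi-likelihood test when FLOX replicate 1 was left out.

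Sox10, the factor that switches on myelin genes in the lineage, measured 39.8 and 45.5 CPM in FLOX and 43.6 and 34.0 CPM in FBN-ARO-KO. Olig1 measured 91.0 and 106 CPM in FLOX and 92.8 and 84.4 CPM in FBN-ARO-KO. Olig2, which with Olig1 specifies the lineage, measured 22.3 and 28.0 CPM in FLOX and 24.6 and 24.3 CPM in FBN-ARO-KO. The groups overlapped for each of these 3 genes, with log2 fold changes of -0.13 (SE 0.14), -0.16 (SE 0.10) and -0.04 (SE 0.13). The homeobox genes Nkx6-2 and Nkx2-2 had log2 fold changes of -0.24 (SE 0.19) and -0.10 (SE 0.27). All 5 of these transcripts have a GC content of 55.7% or more. With the correction their log2 fold changes were between 0.05 and 0.17, so that no direction can be given for them. The median of the 6 transcription factors was -0.12, 0.12 with the correction, and -0.13 when St18 was left out.

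Of the 18 mature myelin genes, 13 had a positive log2 fold change, beside 48.7% of all tested genes, and 15 with the correction, beside 57.2%. Their median was 0.10, and 0.17 with the correction, beside medians of -0.01 and 0.03 for all tested genes. At an unadjusted p under 0.05 there were 6 higher genes, Ermn, Mal, Tspan2, Gjc3, Cldn11 and Mobp, and 1 lower gene, Pllp, where 8.72% of all tested genes were higher and 7.82% lower. The groups did not overlap for 9 genes with FBN-ARO-KO above, beside 25.9% of all genes, and 2 with it below, beside 25.8%.

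**Figure D3:**
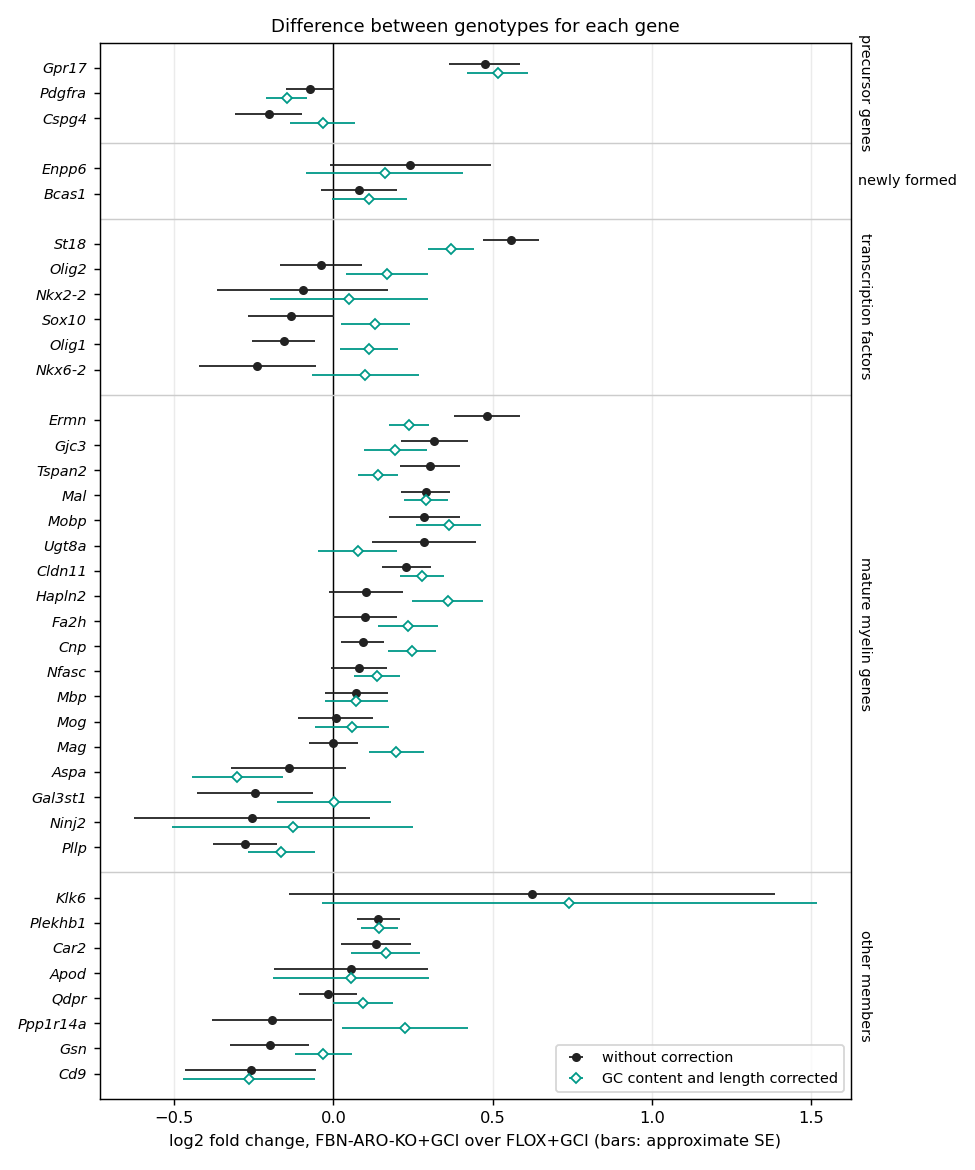
Log2 fold change of each gene between genotypes, with bars of 1 approximate SE, grouped by role and ordered by value. Black circles are without and green diamonds with the correction; the 5 transcription factors below St18 move from the left to the right of 0, while Mal stays at 0.29 and Gpr17 near 0.5.

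Among the proteins of compact myelin and its junctions, Mbp, the most abundant transcript of the list, measured 2097 and 2544 CPM in FLOX and 2521 and 2356 CPM in FBN-ARO-KO. The groups overlapped, and its log2 fold change was 0.07 (SE 0.10, adjusted p = 0.731 with edgeR's quasi-likelihood test). Mobp, a small basic protein of compact myelin, measured 161 and 203 CPM in FLOX and 230 and 214 CPM in FBN-ARO-KO. Its groups did not overlap, but FLOX replicate 2 lay nearer to the FBN-ARO-KO libraries than to replicate 1, and the log2 fold change was 0.29 (SE 0.11), or 0.36 with the correction. It was 0.13 without FLOX replicate 1 and 0.46 without FLOX replicate 2. Mal, a proteolipid of lipid rafts that sorts myelin proteins to the membrane, lies on chromosome 2 of mm9 from 127458962 to 127482431. It measured 253 and 240 CPM in FLOX and 287 and 315 CPM in FBN-ARO-KO. The log2 fold change of Mal was 0.29 (SE 0.08, adjusted p = 0.238 with edgeR's quasi-likelihood test, 0.0358 with DESeq2), and the same 0.29 with the correction. Cldn11, the claudin of myelin tight junctions, measured 87.6 and 87.2 CPM in FLOX and 98.3 and 107 CPM in FBN-ARO-KO, a log2 fold change of 0.23 (SE 0.08) and of 0.28 with the correction. Mal, Cldn11 and Mobp thus had similar values in both fits.

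Pllp, which encodes plasmolipin, a proteolipid of the same MARVEL family as Mal, had the opposite sign. It lies on chromosome 8 from 97198795 to 97220142 and measured 40.9 and 42.3 CPM in FLOX and 31.9 and 36.7 CPM in FBN-ARO-KO. The log2 fold change of Pllp was -0.28 (SE 0.10, adjusted p = 0.259 from edgeR), or -0.16 (SE 0.11) with the correction, when its unadjusted p was 0.164 and no longer under 0.05.

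Genes for adhesion, the cytoskeleton and contact with the axon were led by Ermn. It encodes ermin, a protein that binds actin in the outer cytoplasmic lip and at the paranodes of mature oligodendrocytes, and lies on chromosome 2 from 57897524 to 57905275. Ermn measured 64.1 and 61.3 CPM in FLOX and 79.3 and 95.7 CPM in FBN-ARO-KO. The groups did not overlap, and the FBN-ARO-KO libraries differed from each other by more than the distance from the lower of them to FLOX replicate 1. The log2 fold change was 0.48 (SE 0.10, adjusted p = 0.238 with edgeR's quasi-likelihood test, 0.00802 with DESeq2). Ermn has the lowest GC content of the list, 38.0%, and with the correction its log2 fold change was 0.24. Tspan2, a tetraspanin of the myelin membrane, and Gjc3, a connexin of myelin, had log2 fold changes of 0.30 (SE 0.09) and 0.32 (SE 0.10). With the correction they were 0.14 and 0.19, and neither then had an unadjusted p under 0.05.

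The other 6 genes of this role had no unadjusted p under 0.05 without the correction, and 2 of them, Cnp and Hapln2, were higher at that threshold with it. Mag, the myelin-associated glycoprotein that faces the axon, measured 146 and 158 CPM in FLOX and 148 and 155 CPM in FBN-ARO-KO. Mog, a glycoprotein of the outermost myelin layer, measured 48.8 and 48.7 CPM in FLOX and 43.4 and 54.6 CPM in FBN-ARO-KO. The SE of their log2 fold changes was 0.08 and 0.12, around values of -0.00026 and 0.0072, and with the correction the values were 0.20 (SE 0.09) and 0.06 (SE 0.12). Cnp, the cyclic nucleotide phosphodiesterase that keeps cytoplasmic channels in myelin open, measured 278 and 275 CPM in FLOX and 288 and 301 CPM in FBN-ARO-KO. The log2 fold change of Cnp was 0.09 (SE 0.07), and 0.25 (SE 0.07) with the correction. Hapln2, a link protein of the matrix at nodes of Ranvier, had a log2 fold change of 0.10 (SE 0.12), and 0.36 (SE 0.11) with the correction. Nfasc, whose products anchor paranodes and nodes and which neurons also express, had 0.08 (SE 0.09), and 0.14 with the correction. Ninj2, among the least counted of the list with between 29 and 45 counts per library, had -0.26 (SE 0.37), and -0.13 with the correction.

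Of the 4 enzymes of myelin lipids, 2 had a positive log2 fold change without the correction and 3 with it. Ugt8a makes galactocerebroside, the main glycolipid of myelin. It measured 38.6 and 39.9 CPM in FLOX and 39.1 and 56.6 CPM in FBN-ARO-KO, so that its log2 fold change of 0.28 (SE 0.16) rested on FBN-ARO-KO replicate 2 and was -0.0041 without it, while the correction gave 0.08 (SE 0.12) in all 4 libraries. Gal3st1, which turns galactocerebroside into sulfatide, measured 6.54 and 8.52 CPM in FLOX and 6.52 and 6.18 CPM in FBN-ARO-KO, a log2 fold change of -0.25 (SE 0.18), and 0.0026 with the correction. Fa2h, which hydroxylates the fatty acids of these lipids, had a log2 fold change of 0.10 (SE 0.10), and 0.23 (SE 0.09) with the correction, when it was among the 10 genes with an unadjusted p under 0.05. Aspa, which releases acetate from N-acetylaspartate for lipid synthesis, had -0.14 (SE 0.18), and -0.30 (SE 0.14) with the correction.

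The other 8 genes of the lineage had a median log2 fold change of 0.02, or 0.12 with the correction, and none had an unadjusted p under 0.05 without the correction and only Plekhb1 with it. Plekhb1, whose product has a pleckstrin homology domain, measured 306 and 302 CPM in FLOX and 329 and 341 CPM in FBN-ARO-KO, a log2 fold change of 0.14 (SE 0.07). Apod, a lipocalin that perivascular fibroblasts also express, differed more within the groups than between them, at 263 and 184 CPM in FLOX and 290 and 174 CPM in FBN-ARO-KO. Cd9, a tetraspanin of oligodendrocytes and of other cells, was highest in FLOX replicate 2, at 57.8 CPM against between 35.0 and 39.8 CPM in the other libraries. The log2 fold change of -0.26 (SE 0.21) became 0.14 without that library, and -0.58 without FLOX replicate 1, when the adjusted p was 0.0317 with edgeR's quasi-likelihood test. Gsn, an actin-severing protein, and Ppp1r14a, an inhibitor of myosin phosphatase, had -0.20 (SE 0.12) and -0.19 (SE 0.19), and -0.03 and 0.22 with the correction. Car2, the carbonic anhydrase of oligodendrocytes, and Qdpr, a reductase of tetrahydrobiopterin, had 0.13 (SE 0.11) and -0.02 (SE 0.09), and 0.16 and 0.09 with the correction. Klk6, a secreted protease of mature oligodendrocytes, had 3 and 10 counts in the FLOX libraries against 7 and 18 in the FBN-ARO-KO libraries, a log2 fold change of 0.62 (SE 0.76) that was -0.30 without FBN-ARO-KO replicate 2.

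Promoters of 3 mature myelin genes are shown because their values lay in opposite directions, although none passed an adjusted p with the quasi-likelihood test, and because they have a single promoter entry in RefSeq. They are Ermn and Mal, with the smallest unadjusted p among the higher genes that have such an entry, and Pllp, the lower one. Each runs 5′ to 3′ from 250 bases before to 50 bases after the transcription start in the RefSeq annotation of GRCm38.p6, on the minus strand, at chr2:58052815-58053114 for Ermn, chr2:127656646-127656945 for Mal and chr8:94696193-94696492 for Pllp. Capitals mark a match to the core motif of SOX factors, searched as ACAAAG or ACAATG on both strands.
Ermn: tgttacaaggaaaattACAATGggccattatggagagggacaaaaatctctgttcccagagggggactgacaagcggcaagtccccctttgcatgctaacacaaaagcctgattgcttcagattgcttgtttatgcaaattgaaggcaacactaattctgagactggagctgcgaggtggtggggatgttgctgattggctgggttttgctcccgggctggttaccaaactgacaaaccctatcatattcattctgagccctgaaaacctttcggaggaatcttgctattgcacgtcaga
Mal: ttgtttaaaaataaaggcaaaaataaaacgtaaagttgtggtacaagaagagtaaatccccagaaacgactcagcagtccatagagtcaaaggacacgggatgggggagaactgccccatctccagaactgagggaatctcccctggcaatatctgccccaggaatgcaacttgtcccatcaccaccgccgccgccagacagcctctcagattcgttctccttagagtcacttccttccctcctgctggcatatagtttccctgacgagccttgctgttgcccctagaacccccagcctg
Pllp: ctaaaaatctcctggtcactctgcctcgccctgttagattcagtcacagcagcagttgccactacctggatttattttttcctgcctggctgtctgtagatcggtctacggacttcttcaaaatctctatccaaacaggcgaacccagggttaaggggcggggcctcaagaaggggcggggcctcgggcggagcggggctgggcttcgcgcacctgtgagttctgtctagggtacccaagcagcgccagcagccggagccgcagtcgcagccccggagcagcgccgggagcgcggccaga
The Ermn window held 1 match to the SOX letters, and those of Mal and Pllp held 0. The GC content of the windows was 47.0%, 51.0% and 61.0%. Of the 37 genes, 29 were matched by symbol to 39 promoter entries, and 8 were not (Gpr17, Bcas1, Sox10, Olig1, St18, Mbp, Fa2h and Car2). The SOX letters occurred in 35.9% of the 39 entries and in 28.6% of all 32851 entries. The letters of the MYRF motif, CTGGCAC or CTGGTAC on both strands, occurred in 12.8% and 7.10%, and the E-box CAGCTG in 20.5% and 16.3%. These are descriptions of letters in a window and not binding sites.

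A further 61 genes of the lineage that are not on the list, 60 of which passed the filter, gave 6 higher and 4 lower at an unadjusted p under 0.05, with a median log2 fold change of 0.03. Without the correction, these counts are close to the 8.72% higher and 7.82% lower among all tested genes. With it, 9 of the 60 were higher, against 7.9% of all genes, and 2 were lower, against 3.51%. A positive log2 fold change was found for 36 of the 60 without the correction, against 48.7% of all genes. With it there were 43, against 57.2%. None passed an adjusted p of 0.05 with edgeR's quasi-likelihood test. DESeq2 called 3 of those to which it gave an adjusted p, Anln, Ndrg1 and Dock10, all of them higher. Of all 6240 genes that had an adjusted p, DESeq2 called 3.35% higher and 1.25% lower. Opalin, described below and lower in FBN-ARO-KO, was given no adjusted p by DESeq2 and so could not be called. Anln encodes anillin, a septin-binding scaffold that mature oligodendrocytes express. It measured 43.1 and 41.7 CPM in FLOX and 71.7 and 65.7 CPM in FBN-ARO-KO, a log2 fold change of 0.70 (SE 0.08, adjusted p = 0.146 with edgeR's quasi-likelihood test, 8.37e-06 with DESeq2). This was a larger value than that of any gene on the list, and with the correction it was 0.57, against 0.74 for the sparsely counted Klk6. Leaving out FLOX replicate 1 or 2 gave Anln an adjusted p of 0.0112 or 0.0158 with edgeR's quasi-likelihood test. Ndrg1, a stress-responsive gene mutated in a demyelinating neuropathy, and Dock10, an exchange factor for small GTPases, had log2 fold changes of 0.32 (SE 0.07) and 0.38 (SE 0.08), and 0.38 and 0.26 with the correction. Neu4, a sialidase, had 0.34 (SE 0.12).

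In the other direction, Opalin, a transmembrane protein of mature oligodendrocytes, measured 16.2 and 15.3 CPM in FLOX and 6.82 and 11.6 CPM in FBN-ARO-KO. Its log2 fold change was -0.77 (SE 0.23, adjusted p = 0.245 from edgeR) and was the same -0.77 with the correction, but it was -0.44 without FBN-ARO-KO replicate 1 and -1.20 without FBN-ARO-KO replicate 2. Aatk, a kinase of neurons and glia, and Cadm4, an adhesion molecule of myelinating glia, had -0.23 (SE 0.07) and -0.22 (SE 0.07), and 0.00088 and 0.04 with the correction. C1ql1, a secreted protein of precursor cells, had -0.42 (SE 0.17), and -0.04 with the correction. Myrf, listed under an older symbol, had 0.20 (SE 0.12), and 0.33 with the correction. Myrf was named after its values were seen.

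Markers of other cells were read in the same libraries. Of the 8 Schwann cell markers, Pmp2 had between 0 and 3 counts per library, while Pmp22 and Sox2, which other brain cells express, made up most of the list's summed level of 50.9 to 63.1 CPM. The summed level of the 10 neuronal markers ran from 13238 to 14431 CPM, with a median log2 fold change of 0.03, and that of the 10 microglial markers from 395 to 431 CPM. The 10 astrocyte markers summed to 5166 and 5421 CPM in FLOX and 5392 and 6121 CPM in FBN-ARO-KO. Of the markers of the thalamus, which adjoins the fimbria, the summed level was between 232 and 257 CPM and overlapped between the groups. The choroid plexus markers summed to 69.8 and 55.1 CPM in FLOX and 48.0 and 54.1 CPM in FBN-ARO-KO, so both FBN-ARO-KO libraries lay below. Of the 7 choroid plexus markers that passed the filter, however, 4 had a positive log2 fold change and 3 a negative one. Their median was 0.01, so no direction can be given for this list. Ttr, the gene for transthyretin and named after its values were seen, had a log2 fold change of -0.98 (SE 0.25, adjusted p = 0.238 with edgeR's quasi-likelihood test, 0.0205 with its likelihood ratio test). The part of these cells in the values of the lineage genes was not tested.

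**Figure D4:**
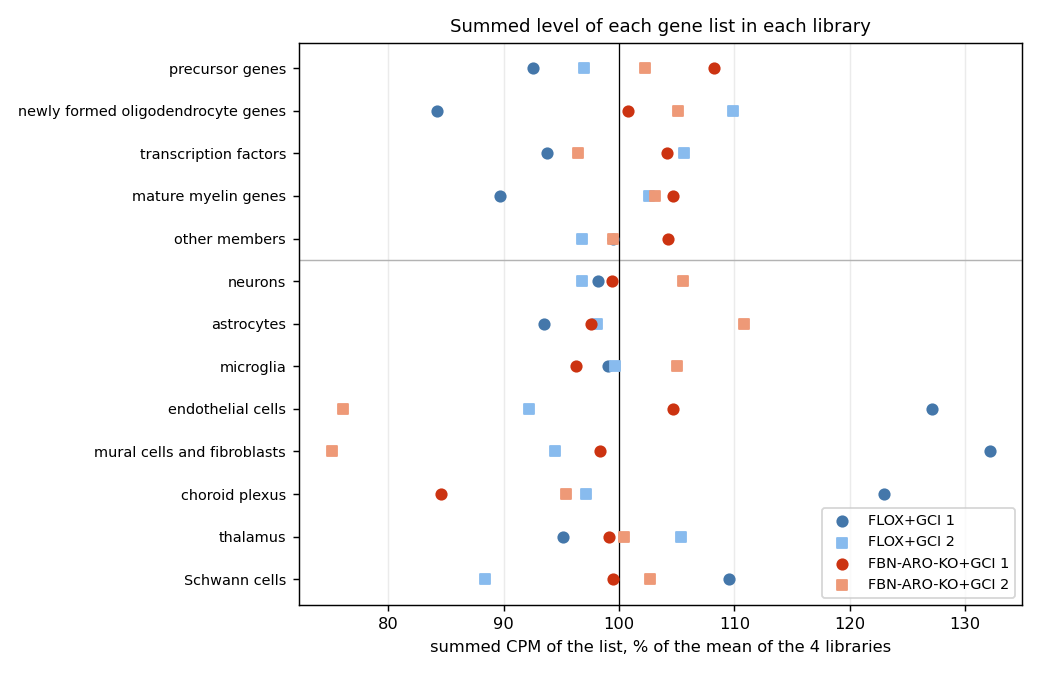
Summed CPM of each role group of the 37 genes and of each marker list of other cells, in each library, as a percentage of the mean of the 4 libraries. Blue is FLOX and red FBN-ARO-KO. The precursor genes sum to 184 and 174 CPM in FBN-ARO-KO against 157 and 165 CPM in FLOX. Of these 3 genes only Gpr17 was higher in FBN-ARO-KO. Pdgfra and Cspg4 had small log2 fold changes of -0.07 and -0.20, or -0.15 and -0.03 with the correction. The endothelial and mural lists spread the widest, with FLOX replicate 1 the highest.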

How the data were processed

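Per the labels, hippocampal RNA of 4 libraries was sequenced as single-end reads, and the authors aligned them to mm9 with TopHat2 (2.0.8b in the submitters' processing notes) and counted reads per gene symbol with HTSeq, whose version, strand setting and annotation release are not given in the sources used here. The deposited counts are raw. Counters of unassigned alignments, left out here, held between 43.4% and 45.5% of each file's total, mostly alignments that were not unique, which can count a read more than once.

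Groups and replicate numbers came from the titles. The members and lists were chosen with earlier results of these data known. The named genes were all 37 members and up to 4 other lineage genes in each direction with the smallest unadjusted p and a mean of at least 50 counts. Genotypes were compared in R 4.3.3 with edgeR 4.0.16 (TMM, filterByExpr with a minimum count of 10, quasi-likelihood test, Benjamini-Hochberg at 0.05), and the SE was taken as the log2 fold change over the square root of F. With 2 libraries a group, an exact permutation test cannot give a two-sided p under 0.333. The correction for GC content and length used natural splines (5 degrees of freedom each) of GC content and log length, fitted per library to the deviation of log2 CPM (prior count 2) from the mean of the gene, as an offset in edgeR. Positions, lengths and GC content came from GENCODE M1 on NCBIM37, the same build as mm9; 5 list symbols were matched through older names in RefSeq. Alternatives were DESeq2 1.42.0, DESeq-style size factors, library totals, other filters, the likelihood ratio test of edgeR, a block for the replicate number and the omission of each library in turn. The procedure was tested on simulated counts. Replicates differed beyond counting noise, with a chi-square of 10.5 (FLOX) and 12.3 (FBN-ARO-KO) per degree of freedom, so none was a library deposited again. Some genes of the lists are not reported here.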

Additional observations from a re-analysis of the deposited data

How the results depend on the processing

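The quasi-likelihood test called 0 of the 37 genes, and the number called depended on the tool. Over all 14527 tested genes, 0 were called higher and 2 lower. With every gene of at least 1 count, 2 were called higher. The likelihood ratio test of edgeR called 139 higher, or 0.957%, and 155 lower. DESeq2 called 209 higher and 78 lower, but only among the 6240 genes to which it gave an adjusted p, of which the 209 are 3.35%. Of the 37 genes, 3 were called higher with the likelihood ratio test and 4 with DESeq2, and of the 61 other lineage genes 3 with either. With 1 library left out, calls over all genes ranged from 0 to 52 higher and from 0 to 141 lower, calls in the list from 0 to 1 higher and from 0 to 1 lower, and in the other lineage genes from 0 to 1 in each direction. These calls arose when a FLOX library was left out: without replicate 1 for St18, Cd9 (lower), Anln and Gjb1 (lower, at -0.84 and named after its value was seen), and without replicate 2 for Gpr17 and Anln. The lone library of a group is then assumed to vary like the other group.

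The replicate numbers are not known to pair the libraries: deviations of same-numbered libraries correlated at 0.129, with only 2 pairs. A block for the replicate number gave 42 genes higher and 142 lower over all genes, among them St18 and Ermn (2 of the list, higher) and 1 higher (Anln) and 1 lower (Opalin) other lineage gene, with adjusted p of 0.0235, 0.0420, 0.00487 and 0.0418. Under the block Mog was -0.00097 and Mag 0.00054. With the block and the correction for GC content and length together, 0 of the list were called.

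The correction moved medians, to 0.14 for the list, 0.12 for transcription factors and 0.17 for mature myelin genes. For the 8 other genes and the other lineage genes they became 0.12 and 0.10. With the block these 5 medians were 0.14, 0.12, 0.17, 0.11 and 0.089. The correction also moved the median over all tested genes, from -0.01 to 0.03 (0.03 with the block). It turned the sign of Sox10 (0.13), Olig1 (0.11), Olig2 (0.17), Nkx6-2 (0.10), Nkx2-2 (0.049), Mag (0.20), Gal3st1 (0.0026), Qdpr (0.092), Ppp1r14a (0.22), Aatk (0.00088) and Cadm4 (0.040). With the block these were 0.13, 0.12, 0.18, 0.10, 0.039, 0.19, 0.015, 0.086, 0.22, 0.0013 and 0.036. Values near 0 also turned: Mog with library totals only (-0.031) and Mag with DESeq2 (0.0042) and with every gene (0.0027). The cause was not tested.

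Leaving out 1 library gave medians from 0.01 to 0.13 for the list, -0.11 to -0.033 for precursor genes, -0.057 to 0.42 for newly formed cells, -0.28 to 0.0034 for transcription factors, 0.090 to 0.19 for mature myelin genes, -0.080 to 0.066 for the 8 other genes and 0.013 to 0.081 for the other lineage genes. Signs turned for Enpp6 (-0.020 to 0.56), Bcas1 (-0.095 to 0.28), Sox10 (-0.33 to 0.034), Olig2 (-0.19 to 0.13), Nkx2-2 (-0.40 to 0.15), Mbp (-0.060 to 0.21), Mog (-0.17 to 0.16), Mag (-0.056 to 0.056), Nfasc (-0.023 to 0.19), Ninj2 (-0.62 to 0.082), Ugt8a (-0.0041 to 0.52), Aspa (-0.35 to 0.10), Qdpr (-0.13 to 0.088), Apod (-0.36 to 0.38), Car2 (-0.0022 to 0.26), Klk6 (-0.30 to 1.72) and Cd9 (-0.58 to 0.14). The 9 genes with an unadjusted p under 0.05 kept their sign in all 4 of these fits. DESeq-style size factors and a mean of at least 50 counts turned no value; genes under that mean have no value there.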
